A study of Mus musculus with 9 samples.

Results

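The genes described here are Ctrb1, Msln, Pde2a, Dnase1l3, Cyria and Laptm5, 6 of 24011 genes measured in mouse primary myoblasts. They were chosen by name because an earlier analysis of the same arrays gave them large rises after GREM1 and because they are known mainly from tissues other than muscle. The GREM1 minus control differences therefore chose the genes and are given as a description, with no test. The response to BMP4 was not used for the choice and was tested. Each gene has 1 probe set on the array, and all 6 passed the filter on dim values.

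Myoblasts are the dividing progeny of satellite cells, the stem cells of skeletal muscle. GREM1-treated cells received recombinant GREM1 protein at 500 ng/ml, BMP4-treated cells recombinant BMP4 at 100 ng/ml, and control cells had a mock treatment. Each group has 3 arrays. All 3 groups had been grown with 20% fetal bovine serum and basic FGF, were then kept in 2% horse serum, and gave RNA after 24 h. The labels name no genotype, strain or age for the source animals, and leave unsaid whether replicates came from separate cultures or animals. The p-values below thus measure only the spread among these arrays, which may be technical.

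BMP4, a secreted ligand, acts through cell surface receptors that activate SMAD transcription factors. GREM1 is released by cells too, and blocks BMP ligands by holding them away from those receptors. In myoblasts, BMP signalling is known to favour proliferation and to hold back differentiation. The 6 genes encode proteins with unrelated tasks. Ctrb1 encodes a chymotrypsinogen, the inactive precursor of a digestive protease of the pancreas. Dnase1l3 encodes a secreted endonuclease that degrades chromatin outside cells and is known from macrophages and dendritic cells. Msln encodes mesothelin, a surface glycoprotein of the mesothelium. Pde2a encodes a phosphodiesterase that is activated by cGMP and hydrolyses cAMP and cGMP. Cyria encodes a protein that binds active Rac1 and restrains the WAVE complex, which drives actin branching. Laptm5 encodes a lysosomal membrane protein of blood cells.

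Promoter windows from RefSeq (GRCm38.p6, 300 bases around a transcript start, the last 50 of them after it) were found for 4 of the 6 genes, with 1 window each for Ctrb1, Cyria and Laptm5 and 5 for Pde2a. They are shown because the 4 genes were higher together after GREM1, in cells where E-box-binding myogenic factors act. Capitals mark matches, on either strand, to the E-boxes CAGCTG and CAGGTG, the MEF2 core (CTA and TAG, 4 bases apart), the GC-rich SMAD element GGCGCC, the SMAD-binding palindrome GTCTAGAC and the TATA box TATAAA. Of the Pde2a windows the one with a match is printed.
Ctrb1, chr8:111690961-111691260, minus strand: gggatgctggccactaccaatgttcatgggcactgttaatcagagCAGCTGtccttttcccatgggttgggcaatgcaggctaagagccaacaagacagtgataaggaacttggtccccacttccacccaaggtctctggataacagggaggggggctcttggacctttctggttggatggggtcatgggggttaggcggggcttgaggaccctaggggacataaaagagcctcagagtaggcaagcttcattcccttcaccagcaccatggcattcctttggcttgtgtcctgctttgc
Laptm5, chr4:130913066-130913365, plus strand: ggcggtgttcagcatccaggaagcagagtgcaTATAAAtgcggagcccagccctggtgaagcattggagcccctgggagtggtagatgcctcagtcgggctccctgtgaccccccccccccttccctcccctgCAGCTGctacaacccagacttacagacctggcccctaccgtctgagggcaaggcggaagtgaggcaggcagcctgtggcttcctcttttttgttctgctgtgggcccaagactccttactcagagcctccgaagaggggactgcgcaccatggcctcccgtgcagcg
Pde2a, chr7:101455812-101456111, plus strand: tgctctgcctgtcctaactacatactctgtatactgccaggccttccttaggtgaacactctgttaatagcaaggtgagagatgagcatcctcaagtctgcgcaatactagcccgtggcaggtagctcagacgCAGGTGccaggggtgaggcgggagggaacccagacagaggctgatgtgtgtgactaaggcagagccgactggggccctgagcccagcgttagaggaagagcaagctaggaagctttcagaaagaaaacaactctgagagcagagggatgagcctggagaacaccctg
Cyria, chr12:12261927-12262226, plus strand: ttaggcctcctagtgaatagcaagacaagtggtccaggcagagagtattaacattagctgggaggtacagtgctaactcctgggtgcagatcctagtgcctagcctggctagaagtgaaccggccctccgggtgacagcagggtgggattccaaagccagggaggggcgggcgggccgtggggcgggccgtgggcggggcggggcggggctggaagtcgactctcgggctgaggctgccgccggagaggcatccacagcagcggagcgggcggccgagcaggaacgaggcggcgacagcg

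The E-box CAGCTG began 205 bases before the start in the Ctrb1 window and 117 bases before it in the Laptm5 window, and 16.3% of all 32851 windows hold it. CAGGTG began 117 bases before the start in 1 Pde2a window, against 20.2% of all windows. TATAAA began 218 bases before the start in the Laptm5 window, against 13.6% of all windows. The RefSeq Laptm5 gene begins at 130912890, ahead of this window, so both Laptm5 matches lie inside the annotated gene. The MEF2 core (3.69% of all windows), GGCGCC (11.9%) and GTCTAGAC (0.213%) had no match in the 8 windows of these genes. A match is a description of letters and not a binding site, the array does not tell which of the Pde2a starts was used, and no match says only that the letters are not in the window. GC content was 54.3% in the Ctrb1 window, 62.3% in that of Laptm5 and 66.3% in that of Cyria, with a median of 52.7% over all windows.

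The 9 arrays had medians of 5.00 to 5.12 (log2), and 17142 genes were tested, those that exceeded the 30th percentile of an array's named probe sets in at least 3 arrays. Tests were made with limma, and a gene was called at a Benjamini-Hochberg adjusted p under 0.05 over all tested genes. A principal component analysis parted the GREM1 arrays from the other 6 on its first component (42.2% of the variance). The second component (20.9%) set control replicate 1 apart, at 31.6 against at most 6.12 for any other array. At its other end lay the replicate 3 arrays, at -16.5 for GREM1, -12.6 for BMP4 and -6.60 for control. Values of the 6 genes without control replicate 1 are therefore given below. The number of arrays limits the precision of every value. Markers of muscle cells were bright. Des, the muscle intermediate filament protein, averaged 11.36 ± 0.040 (SD, n = 3) in GREM1 arrays, and all 10 myogenic markers exceeded the 30th percentile of each array. That bar is low and does not settle the cell type, since the leukocyte markers Cd53 and Cd68 also passed it in all 9 arrays. Myog and the embryonic myosin Myh3 averaged 10.01 and 11.46 in control arrays, and how far the cells had differentiated was not measured.

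All 6 genes had their highest values in the GREM1 arrays. In each gene the lowest GREM1 array lay above the highest control array and above the highest BMP4 array. GREM1 minus control differences ran from 1.14 for Laptm5 to 2.02 for Ctrb1 on the log2 scale, or 2.21- to 4.05-fold, with a median of 1.57 against -0.0057 over all tested genes. Ordered by size among all tested genes, Ctrb1 came 1st, Msln 6th, Pde2a 8th, Dnase1l3 9th, Cyria 10th and Laptm5 30th. GREM1 arrays lay above the control arrays without overlap in 11.3% of tested genes, and nothing is read from the 6 of 6 here, since that contrast chose them. GREM1 minus BMP4 differences ran from 1.54 for Laptm5 to 2.77 for Msln, with a median of 2.05. All 6 were without overlap, as GREM1 arrays lay above BMP4 arrays in 12.2% of tested genes, and they share the GREM1 arrays with the choice.

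**Figure D1:**
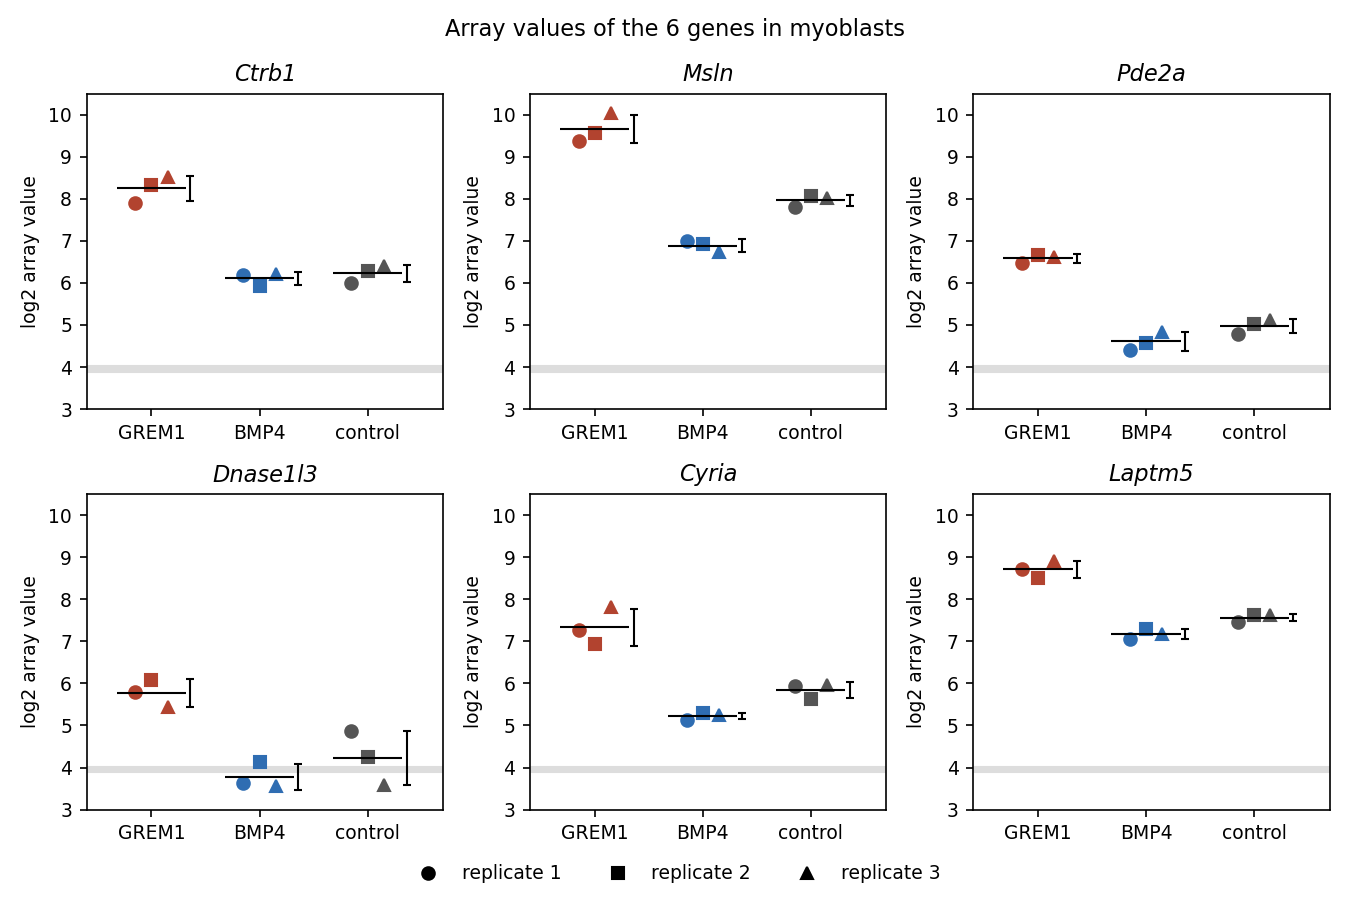
Log2 array values (y axis) of the 6 genes in GREM1, BMP4 and control arrays (x axis), 1 point per array with the replicate as symbol, the group mean as a line and the SD (n = 3) as the bar beside it. The grey band is the range over arrays of the 30th percentile of named probe sets, 3.89 to 4.02, and every gene is highest in the GREM1 arrays.

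Among the secreted and surface proteins, the Ctrb1 transcript had log2 values of 7.91, 8.32 and 8.51 in the GREM1 arrays, 6.18, 5.92 and 6.22 in the BMP4 arrays and 6.003, 6.28 and 6.40 in the controls. The BMP4 and control arrays interleaved, so that Ctrb1 separated only the GREM1 arrays from the rest. GREM1 minus control was 2.02 (4.05-fold) and BMP4 minus control was -0.12 ± 0.17 (SE, 95% interval -0.49 to 0.25, limma adjusted p = 0.873). The interval for BMP4 spans 0, and a fall with BMP4 of the size seen for Msln lies outside it.

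Msln read 9.37, 9.56 and 10.03 in the GREM1 arrays, 7.01, 6.93 and 6.73 in the BMP4 arrays and 7.81, 8.06 and 8.01 in the controls. The 3 groups did not overlap, with BMP4 lowest, control between and GREM1 highest. GREM1 minus control was 1.69 (3.23-fold). BMP4 minus control was -1.08 ± 0.16 (SE, 95% interval -1.44 to -0.71), a value 2.11-fold lower with BMP4. Over all genes it missed the threshold of 0.05 (limma adjusted p = 0.0504). With arrays of the same replicate number paired as a block it passed (limma adjusted p = 0.0372), as it did without GREM1 replicate 3 (limma adjusted p = 0.0149). Of the 18 alternative settings given below, it passed in 6 and did not in 12. It had its highest limma adjusted p, 0.220, without control replicate 2. It was the most negative of the 6 BMP4 differences, and only 6 of the 17142 tested genes had a lower one.

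Dnase1l3 read 5.80, 6.08 and 5.44 in the GREM1 arrays, 3.64, 4.14 and 3.56 in the BMP4 arrays and 4.86, 4.25 and 3.58 in the controls. It exceeded the 30th percentile in 3 GREM1 arrays, 1 BMP4 array and 2 control arrays, so BMP4 and control values are near the dim end of the scale. The controls spread most among the 6 genes (SD 0.64). GREM1 minus control was 1.54 (2.91-fold) and BMP4 minus control was -0.45 ± 0.30 (SE, 95% interval -1.13 to 0.22, limma adjusted p = 0.734). A fall of the size seen for Msln with BMP4 lies within that interval, which comes from the fit without the replicate block. With the block, BMP4 minus control had a limma adjusted p = 0.400. The other 5 genes were above the 30th percentile in all 9 arrays.

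Of the intracellular signalling proteins, Pde2a read 6.47, 6.67 and 6.61 in the GREM1 arrays, 4.41, 4.58 and 4.83 in the BMP4 arrays and 4.79, 5.02 and 5.12 in the controls. The GREM1 arrays were close together (SD 0.11) and the highest BMP4 array overlapped the lowest control. The GREM1 minus control difference was 1.61 (3.04-fold) and BMP4 minus control was -0.37 ± 0.13 (SE, 95% interval -0.66 to -0.08, limma adjusted p = 0.522).

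Cyria read 7.27, 6.94 and 7.81 in the GREM1 arrays, 5.14, 5.29 and 5.25 in the BMP4 arrays and 5.93, 5.64 and 5.97 in the controls. GREM1 arrays were the most scattered of this gene's groups (SD 0.44) and BMP4 arrays the tightest (SD 0.077), with no overlap between any of the groups. Against the controls, GREM1 arrays differed by 1.49 (2.82-fold) and BMP4 minus control was -0.62 ± 0.19 (SE, 95% interval -1.05 to -0.19, limma adjusted p = 0.465).

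Laptm5, the lysosomal protein, read 8.71, 8.51 and 8.90 in the GREM1 arrays, 7.06, 7.29 and 7.17 in the BMP4 arrays and 7.46, 7.62 and 7.62 in the controls. Its groups did not overlap, in the same order as those of Msln and Cyria. The difference of GREM1 from control was 1.14 (2.21-fold), the smallest of the 6, and BMP4 minus control was -0.39 ± 0.11 (SE, 95% interval -0.64 to -0.14, limma adjusted p = 0.406).

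**Figure D2:**
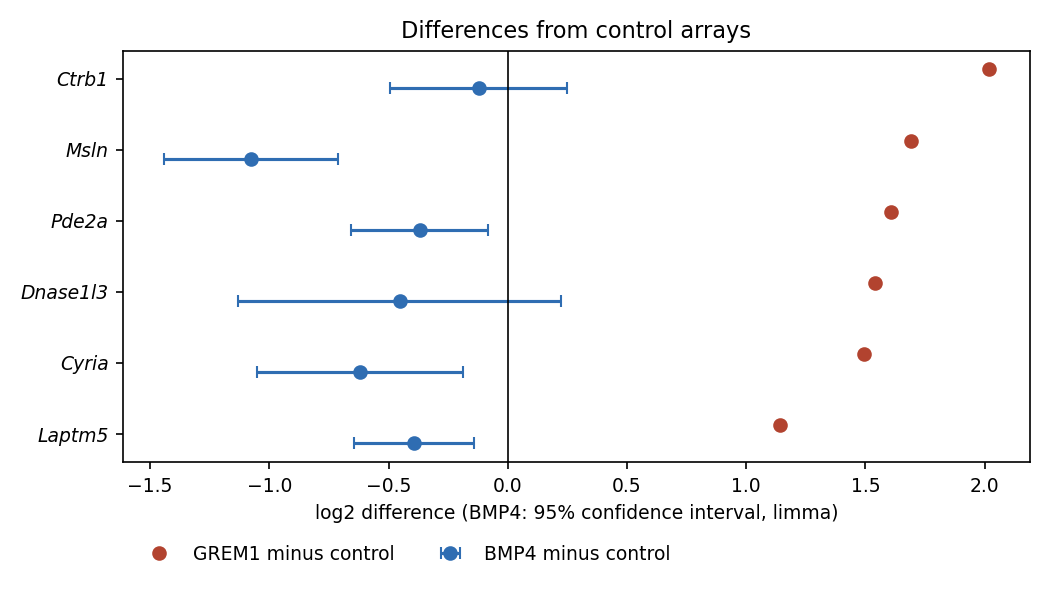
Log2 difference from the control arrays (x axis) for each gene (y axis), GREM1 minus control above BMP4 minus control. Bars are 95% intervals from limma and are drawn for BMP4 only, since the GREM1 differences chose the genes. The GREM1 differences lie between 1.14 and 2.02, and the BMP4 differences lie between -1.08 and -0.12.

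Across the 6 genes, BMP4 minus control was below 0 in each, with a median of -0.42 against -0.0060 over all tested genes, 51.8% of which were below 0. In limma, 0 of 6 passed over all genes (4 at an unadjusted p under 0.05, as 8.02% of tested genes did), and 1 of 6, Msln, passed with the replicate block. The background of called genes was 0.117% without the block and 0.379% with it. These background counts depend on single arrays: the 20 genes called for BMP4 minus control were 2 to 17 when any 1 array was left out, and the 734 called for GREM1 minus control were 245 to 898. BMP4 arrays lay below the controls without overlap for Msln, Cyria and Laptm5, as in 5.9% of tested genes. For Ctrb1, Pde2a and Dnase1l3 the BMP4 and control arrays overlapped. This contrast and GREM1 minus control share the same 3 control arrays. BMP4 minus control without control replicate 1 was -0.23 for Ctrb1, -1.15 for Msln, -0.46 for Pde2a, -0.14 for Dnase1l3, -0.58 for Cyria and -0.44 for Laptm5. The values of Ctrb1 and Dnase1l3, which did not pass, moved by over 1.5 times with this and other arrays. For Ctrb1 the difference was -0.038 without control replicate 3 and -0.028 without BMP4 replicate 2, and for Dnase1l3 it was -0.78 without control replicate 3. GREM1 minus control without control replicate 1 ran from 1.09 for Laptm5 to 1.90 for Ctrb1, with Dnase1l3 at 1.86.

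The 6 genes were not parallel in every array. GREM1 replicate 3 held the highest value of Ctrb1, Msln, Cyria and Laptm5 and the lowest GREM1 value of Dnase1l3. Control replicate 1 held the lowest control value of Ctrb1, Msln, Pde2a and Laptm5 and the highest of Dnase1l3. With each gene centred on its own mean over the 9 arrays, the root-mean-square distance between 2 genes was smallest for Ctrb1 and Pde2a (0.23) and largest for Msln and Dnase1l3 (0.58). Over all other tested genes by the same measure, Asb2, a muscle subunit of ubiquitin ligases, was among the 3 nearest of Ctrb1 (0.20), Msln (0.36), Pde2a (0.17) and Cyria (0.23). Asb2 read 6.71, 6.97 and 7.09 in the GREM1 arrays, 4.97, 4.85 and 4.84 in the BMP4 arrays and 5.27, 5.18 and 5.32 in the controls. Cdkn1c, which encodes the cell cycle inhibitor p57, was near Msln (0.39) and Cyria (0.25). The adhesion receptor Adgrg1 was also near Ctrb1 (0.295), the brain-type creatine kinase Ckb near Pde2a (0.24) and the growth factor Fgf9 near Cyria (0.26).

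The genes nearest to Dnase1l3 were Heg1 (0.27), Prkag3, a subunit of the energy sensor AMPK (0.28), and Cmah (0.32). Those nearest to Laptm5 were Wfs1, a membrane protein of the endoplasmic reticulum (0.12), the neuronal pentraxin Nptx1 (0.13) and Mamdc2 (0.17). These distances over 9 arrays are led by the GREM1 arrays that chose the genes.

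Relatives and partners of the 6 proteins were taken as 7 lists, chosen by family and not by how they moved. Of the 70 relatives tested, 1 rose and 1 fell after GREM1, against 2.07% and 2.21% of all tested genes, and 14 had an unadjusted p under 0.05 in limma. The share of all tested genes at that unadjusted p was not taken for GREM1 minus control. Nothing is therefore read from such unadjusted counts after GREM1, here or below. The differences of the relatives ran from -0.65 to 0.64 with a median of -0.013. All lay below Laptm5, the lowest of the 6 genes. Nothing is read from that, since the 6 were chosen for large rises and Laptm5 ranked 30th among all tested genes. With the replicate block, 4 relatives rose and 4 fell, against 5.58% and 6.0% of tested genes.

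In the chymotrypsin and elastase family, 0 of 5 relatives of Ctrb1 passed in limma (0 at an unadjusted p under 0.05). The chymotrypsin-like protease Ctrl differed by -0.06, Ctrc by 0.0045, and the elastases Cela1, Cela2a and Cela3b by 0.08, 0.02 and 0.23 (lowest limma adjusted p = 0.593). In the mesothelin family Mslnl, which adjoins Msln on its chromosome, was the only relative above the filter, at 4.77, 4.62 and 4.59 in GREM1 arrays, 4.45, 4.46 and 4.51 in BMP4 arrays and 4.49, 4.45 and 4.49 in controls. Its difference of 0.19 ± 0.076 (SE) did not pass (limma adjusted p = 0.209). Strc, Otoa and Muc16, the last a binding partner of mesothelin, lay below the 30th percentile in all 9 arrays. Among nucleases, 0 of 4 passed in limma (0 at an unadjusted p under 0.05). Dnase1 differed by -0.04, Dnase1l1 by 0.13, Dnase1l2 by -0.08 and the lysosomal Dnase2a by 0.34, and Dnase2b stayed below the filter.

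Among the cyclic nucleotide phosphodiesterases, the highest difference of the 16 other tested genes was 0.40, for Pde7a. Of these, 0 rose and 1 fell in limma (5 at an unadjusted p under 0.05). Pde3b, a phosphodiesterase that cGMP inhibits, read 4.60, 4.66 and 4.70 in GREM1 arrays, 5.04, 5.22 and 5.54 in BMP4 arrays and 5.21, 5.26 and 5.32 in controls. It fell by 0.61 ± 0.12 (SE, limma adjusted p = 0.0244), and GREM1 arrays lay below both other groups. The call was lost without any 1 of the 3 control or 3 GREM1 arrays (differences -0.63 to -0.58, limma adjusted p = 0.0529 to 0.0944). Pde7b, a cAMP phosphodiesterase, had values of 6.38, 6.59 and 7.13 in BMP4 arrays and 5.49, 5.63 and 5.66 in controls, a difference of 1.11 ± 0.18 (SE, limma adjusted p = 0.0628, or 0.0307 with the block), while GREM1 minus control was -0.02.

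Of the 21 tested cyclases, receptors and kinases of cyclic nucleotide signalling, 1 rose and 0 fell after GREM1 in limma (7 at an unadjusted p under 0.05). Prkaca, the catalytic subunit of the cAMP-dependent kinase, read 9.92, 9.84 and 9.67 in GREM1 arrays, 9.40, 9.31 and 9.05 in BMP4 arrays and 9.12, 9.44 and 8.95 in controls, and rose by 0.64 ± 0.14 (SE, limma adjusted p = 0.0384). That call was lost without control replicate 1 or 3, BMP4 replicate 1 or 2, or any 1 of the GREM1 arrays (differences 0.53 to 0.71, limma adjusted p = 0.0507 to 0.136). With the replicate block, Adcy8 (0.51), Prkar1a (0.50) and Prkg1 (0.58) also rose, and the natriuretic peptide receptor Npr3 (-0.65), Prkg2 (-0.50) and Prkar2b (-0.34) also fell (highest adjusted p = 0.0427 with the block). The soluble guanylate cyclase subunits Gucy1a1 and Gucy1b1, a source of the cGMP that activates the Pde2a enzyme, lay below the 30th percentile in all 9 arrays. Gucy1a2 and the natriuretic peptide receptors Npr1 and Npr2 of the same list exceeded it in all 9. Npr2 averaged 7.93 in GREM1 arrays, 7.87 in BMP4 arrays and 7.84 in controls.

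For Cyria, 0 of 14 relatives and partners passed in limma (0 at an unadjusted p under 0.05). Its paralog Cyrib differed by -0.08 ± 0.21 (SE, limma adjusted p = 0.876), Rac1 by 0.04 and the WAVE subunits Wasf2, Nckap1 and Abi1 by 0.14, 0.01 and 0.08. For Laptm5, 0 of 9 relatives and ligases passed in limma (1 at an unadjusted p under 0.05). Laptm4a differed by 0.27 (limma adjusted p = 0.166), Laptm4b by -0.10, and Nedd4, the ubiquitin ligase that binds LAPTM5, by 0.11. After BMP4, 0 of the 70 relatives passed in limma (3 at an unadjusted p under 0.05), and 1, Pde7b, passed with the block.

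**Figure D3:**
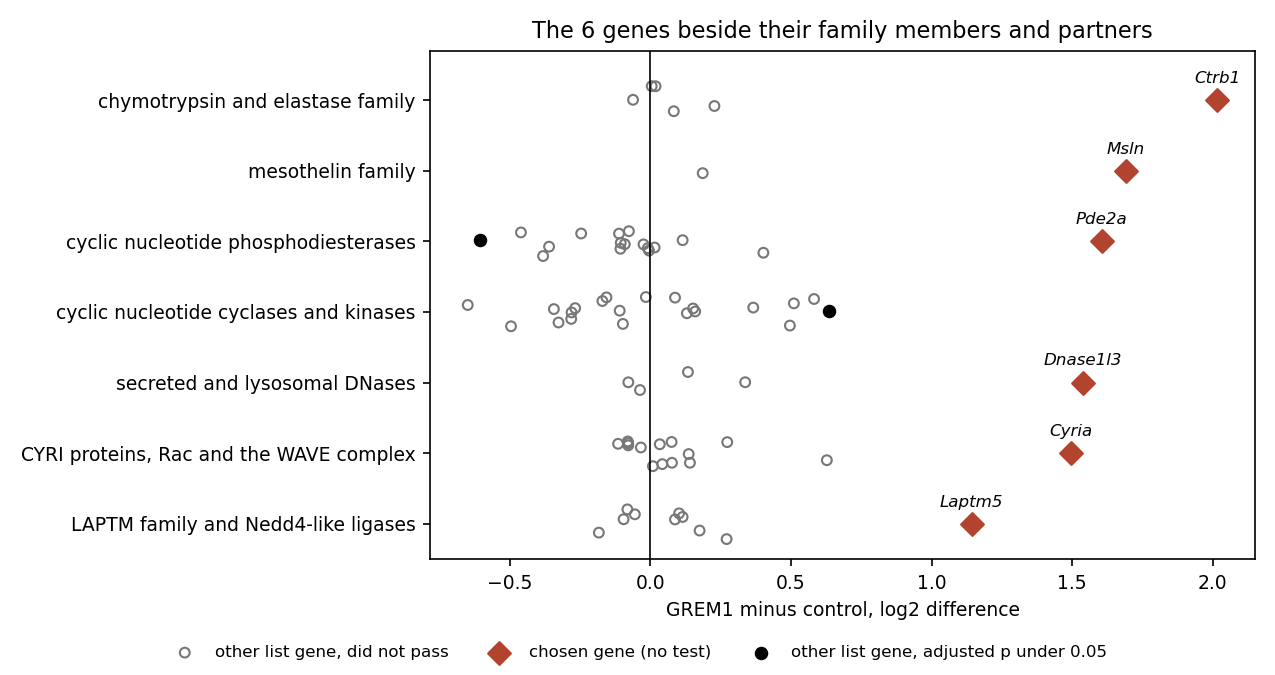
GREM1 minus control log2 difference (x axis) for the 6 chosen genes (diamonds) and for the tested relatives in each list (y axis), filled where limma gave an adjusted p under 0.05 and open otherwise. The chosen genes were picked for large rises and lie at 1.14 or above, and the relatives lie between -0.65 and 0.64.

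The 6 genes lie on different chromosomes, and the nearest measured gene on each side was read from the RefSeq gene order. Of 12 such neighbours, 10 passed the filter and 1 rose after GREM1, against 2.07% of all tested genes (4 at an unadjusted p under 0.05). Abhd6, a lipase next to Dnase1l3, read 5.65, 5.55 and 5.49 in GREM1 arrays, 4.99, 4.83 and 5.01 in BMP4 arrays and 4.80, 5.08 and 5.22 in controls, and rose by 0.53 ± 0.11 (SE, limma adjusted p = 0.0351). Its call was lost without control replicate 1 or 2, BMP4 replicate 1 or 2, or any 1 of the GREM1 arrays (differences 0.41 to 0.57, limma adjusted p = 0.0536 to 0.127). On the other side of Dnase1l3, Gm10044 differed by -0.25. The transcript 4921511I17Rik, which overlaps Cyria in the RefSeq table, was 0.48 ± 0.12 (SE, limma adjusted p = 0.0538, or 0.0211 with the block). The microRNA gene Mir139, which lies within Pde2a, differed by -0.24 ± 0.18 (SE, limma adjusted p = 0.503), and Arap1 on the other side of Pde2a by 0.06. Zfp1 and Bcar1 beside Ctrb1 differed by 0.06 and 0.16, Ciao3 beside Msln by 0.05 and Sdc3 beside Laptm5 by -0.29 (lowest limma adjusted p = 0.0888). Tubb2a-ps2 beside Cyria and Matn1 beside Laptm5 did not pass the filter.

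Markers of the tissues from which these genes are best known gave no call after GREM1. The array held 54 such markers, of leukocytes, endothelium, mesothelium and epithelium, exocrine pancreas and fibroblasts, and 34 passed the filter and were tested. Of these, 0 passed for GREM1 minus control in limma (4 at an unadjusted p under 0.05). Among all tested genes 2.07% were called higher and 2.21% lower, so 0 of 34 is near the background and nothing is read from it. Differences ran from -0.83 for the trypsin gene Try4 to 0.23 for Cela3b. For leukocytes, where Laptm5 is known, Ptprc and Cd52 lay below the 30th percentile in all 9 arrays, 8 of 13 markers were tested, and 0 passed. The log2 summed level of that list was 8.30 to 8.34 in GREM1 arrays, 8.40 to 8.47 in BMP4 arrays and 8.42 to 8.45 in controls. That sum is led by its brightest genes, Cd68 (GREM1 minus control -0.16) and Cd53 (-0.47). The median difference of the 8 tested markers was 0.0005. Ptprc, which encodes the leukocyte surface protein CD45, averaged 2.98 ± 0.073 (SD, n = 3) in GREM1 arrays.

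For the endothelium the summed level was 7.80 to 7.88 in GREM1 arrays, 7.81 to 7.83 in BMP4 arrays and 7.76 to 7.84 in controls. Emcn and Erg lay below the 30th percentile in all arrays, whereas Pecam1, Egfl7 and Esam exceeded it in all 9, and 6 of 12 markers were tested. The mesothelial and epithelial list had sums of 8.46 to 8.56 in GREM1 arrays, 8.32 to 8.42 in BMP4 arrays and 8.49 to 8.62 in controls. It was lowest in the BMP4 arrays, with 0 calls for BMP4 minus control in limma (1 at an unadjusted p under 0.05). Its members Lrrn4, Muc16, Bnc1 and Epcam lay below the 30th percentile in all arrays, and 8 of 12 were tested. The keratins Krt7, Krt8, Krt18 and Krt19 exceeded that percentile in all 9 arrays. After GREM1, Wt1 differed by -0.01 and Upk3b by -0.09. The lowest difference of the list was -0.35 for Krt7 (limma adjusted p = 0.209) and the highest 0.13 for Krt19. The exocrine pancreas list, of which 9 of 12 genes were found on the array and 8 tested, had sums of 7.89 to 8.03 in GREM1 arrays, 7.80 to 8.04 in BMP4 arrays and 7.88 to 8.22 in controls. Its transcription factor Ptf1a lay below the 30th percentile in all arrays, and Cela2a and Cela3b are also in the family list of Ctrb1.

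The fibroblast list had sums of 7.93 to 8.11 in GREM1 arrays, 8.11 to 8.38 in BMP4 arrays and 8.14 to 8.53 in controls, with 4 of 8 markers tested and Dcn, Lum and Dpt below the 30th percentile in all arrays. Only for the myogenic list did every GREM1 array lie above every other array, at 13.82 to 13.88, against 13.52 to 13.77 in BMP4 arrays and 13.30 to 13.69 in controls. Of its 10 markers the surface proteins Itga7 (1.00) and Cdh15 (0.91) rose after GREM1 (highest limma adjusted p = 0.00348) and 0 fell, against 2.07% and 2.21% of all tested genes, and 5 had an unadjusted p under 0.05. The sum is led by its brightest genes, such as Chrna1 (GREM1 minus control 0.20) and Myh3 (0.40), which did not pass. Myog read 10.75, 11.05 and 10.94 in GREM1 arrays, 10.55, 10.72 and 9.70 in BMP4 arrays and 9.88, 10.46 and 9.69 in controls. Its GREM1 arrays lay above all others, with a GREM1 minus control difference of 0.90 ± 0.27 (SE, limma adjusted p = 0.0947). The list did not move as one. Myf5, a myogenic factor of undifferentiated myoblasts, read 6.58, 6.85 and 7.51 in GREM1 arrays, 7.69, 7.91 and 8.41 in BMP4 arrays and 7.40, 7.74 and 8.34 in controls, a GREM1 minus control difference of -0.85 ± 0.29 (SE, limma adjusted p = 0.144). Its GREM1 arrays lay below every BMP4 array and overlapped the controls. Pax7, the satellite cell factor, differed by -0.20 (limma adjusted p = 0.504). The part of this shift in the values of the 6 genes was not tested. In bulk RNA, more cells with a transcript and more transcript per cell cannot be told apart.

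**Figure D4:**
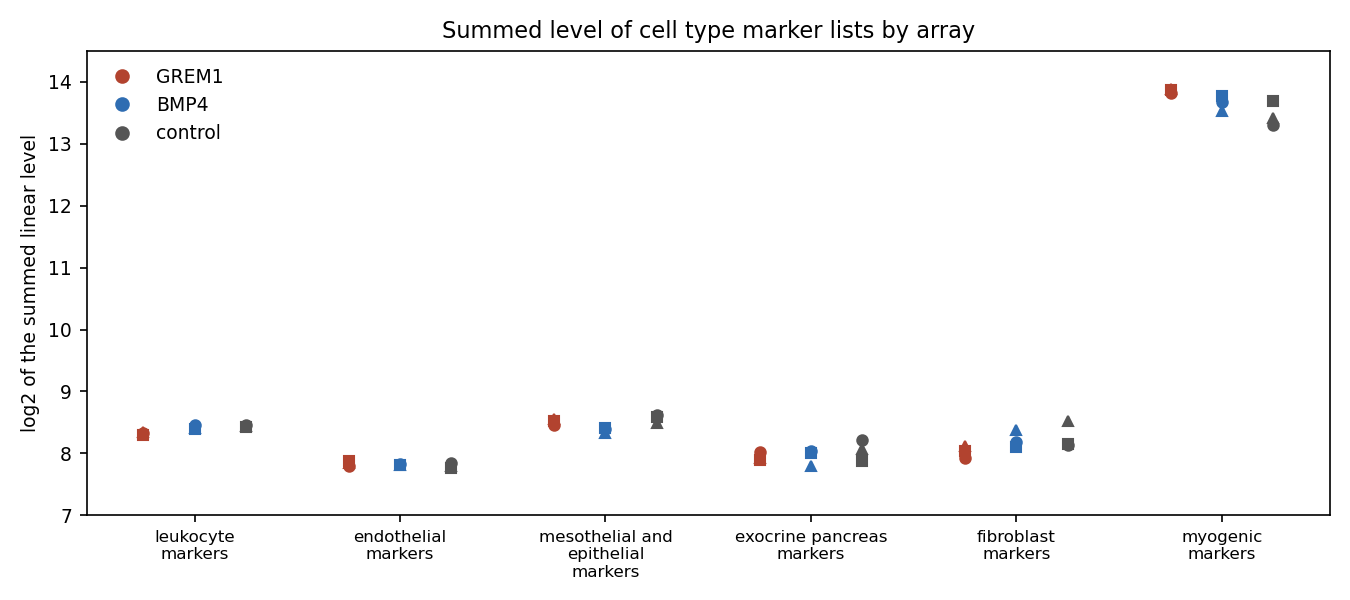
Log2 of the summed linear level (y axis) of 6 cell type marker lists (x axis) in each array, with GREM1, BMP4 and control from left to right in each list and the replicate as symbol (circle 1, square 2, triangle 3). The myogenic list lies between 13.30 and 13.88 and the other lists lie between 7.76 and 8.62.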

How the data were processed

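Per the submitters' processing notes, the authors made the deposited log2 values with RMA in Affymetrix Expression Console, a method of background correction, between-array normalization and probe set summary that compresses differences of dim genes. The chip definition is not given in the sources used here, nor is the genome build. The values were used as deposited. Of 24973 probe sets, 24015 had 1 gene symbol, 0 had several and 958 had none and were left out. By Entrez ID, 23922 were found among RefSeq genes. Where a gene had more than 1 probe set (4 genes), the one brightest on average was kept. Genes with at least 3 arrays above the 30th percentile of that array's named probe sets (3.89 to 4.02) were tested, which left out 6869.

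Differences were fitted on all 9 arrays with limma 3.58.1 in R 4.3.3 (lmFit, eBayes, 6 residual and 3.47 prior degrees of freedom, two-sided, Benjamini-Hochberg over 17142 genes, threshold 0.05). The code was tested on simulated data. Intervals are 95% intervals of that fit. The members, lists and tests were chosen with earlier results of these data known. Named genes are the 6 genes, their chromosomal neighbours, the 3 nearest genes of each in root-mean-square distance, skipping predicted genes and clones, and list relatives past the threshold, or all of short lists. Cyrib, Laptm4a, Laptm4b, Nedd4, Rac1, Wasf2, Nckap1, Abi1, Pde7a, Pde7b, Gucy1a1, Gucy1a2, Gucy1b1, Npr1 and Npr2 fall outside that rule. So do the relatives called only with the block and the cell type markers given with values. All of these were named after their values were seen.

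Arrays of the same replicate number deviated together from their group means, with correlations of 0.170 to 0.580 between BMP4 and control and 0.118 to 0.473 between GREM1 and control arrays (3 pairs each), so the numbers were taken to pair them. Between GREM1 and BMP4 they were 0.0885 to 0.423. Replicate 2 was the weakest: GREM1 replicate 2 correlated more with control replicate 1 (0.159) than with control replicate 2 (0.118), and more with BMP4 replicate 1 (0.232) than with BMP4 replicate 2 (0.0885). The pairing comes from the numbers in the labels and this check. The reported fit, with its SEs, intervals and calls, leaves the pairing out, and only values given with the block use it. Alternatives were the replicate block, a fit restricted to the groups compared, an intensity trend, array weights, quantile normalization once more, median centring, other filters, the mean of probe sets and leaving out each array.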

Additional observations from a re-analysis of the deposited data

How the results depend on the processing

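Over the 18 alternatives, every GREM1 minus control and GREM1 minus BMP4 difference of the 6 genes kept its sign, and so did every BMP4 minus control difference. For the GREM1 differences nothing is read from this. GREM1 minus control chose the genes, and their GREM1 arrays lay above all others. The median of GREM1 minus control stayed between 1.55 and 1.63 and that of GREM1 minus BMP4 between 1.99 and 2.11. The count of the 6 genes called for BMP4 minus control, 0 as reported, was 1 with the replicate block, with an intensity trend, with array weights, with quantile normalization once more and with the filter at the 50th percentile, and 0 to 1 when 1 array was left out. That gene was Msln each time (adjusted p = 0.0372, 0.0484, 0.0139, 0.0263, 0.0387, and 0.0149 without GREM1 replicate 3), and its difference ran from -1.15 to -0.997, with a highest adjusted p = 0.220 without control replicate 2.

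Relatives called higher after GREM1, 1 as reported, were 4 with the replicate block, 0 with only the groups compared, 0 with quantile normalization once more and 0 with no filter, and relatives called lower, 1 as reported, were 4 with the block. Each was 0 to 1 when 1 array was left out. Relatives called after BMP4, 0 as reported, were 1 with the block and 1 with array weights, and 0 when any 1 array was left out. Neighbouring genes called after GREM1, 1 as reported, were 2 with the block, with array weights, with quantile normalization once more, with median centring and with the filter at the 50th percentile, 0 with only the groups compared, and 0 to 1 when 1 array was left out. Abhd6, Pde3b and Prkaca lost the call in 8, 6 and 10 of the 18 alternatives. Among neighbours that did not pass, leaving out 1 array turned the sign of Zfp1 (-0.062 to 0.18), Ciao3 (-0.028 to 0.12) and Arap1 (-0.014 to 0.13). The cause of these changes was not tested. Values of Dnase1l3 outside the GREM1 arrays are limited by their nearness to the dim end of the arrays.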

Other observations

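A further 4 genes, ranked 24th to 32nd by GREM1 minus control, were chosen after their values were seen, with no list or count of such genes behind them. The same stretch of the ranking and the ranks above it also hold muscle genes such as Ckm, Acta2, Unc45b and Prkag3. Cd300c, a leukocyte surface receptor, read 7.57, 7.64 and 7.03 in GREM1 arrays, 5.47, 5.63 and 5.87 in BMP4 arrays and 6.40, 6.28 and 6.07 in controls. Pstpip2, an actin-associated protein of macrophages, read 6.98, 6.93 and 6.64 in GREM1 arrays, 5.48, 5.59 and 5.38 in BMP4 arrays and 5.84, 5.88 and 5.41 in controls. In both genes, as in S1pr1 and Heg1 below, the GREM1 arrays lay above all others. GREM1 arrays lay above control arrays in 11.3% of tested genes and above BMP4 arrays in 12.2%. Nothing is read from this, since the genes were taken from the top of the GREM1 minus control ranking. S1pr1, the sphingosine-1-phosphate receptor of lymphocytes and endothelium, read 6.56, 6.55 and 5.73 in GREM1 arrays, 4.79, 4.90 and 4.61 in BMP4 arrays and 5.22, 5.22 and 4.80 in controls. Heg1, a membrane protein of endothelial junctions, read 8.47, 8.36 and 7.89 in GREM1 arrays, 6.57, 6.70 and 6.57 in BMP4 arrays and 7.33, 7.12 and 6.70 in controls. GREM1 minus control was 1.16 for Cd300c, 1.14 for Pstpip2, 1.20 for S1pr1 and 1.19 for Heg1, and BMP4 minus control was -0.60, -0.22, -0.31 and -0.44 in the same order, of which none passed (lowest limma adjusted p = 0.414). GREM1 replicate 3 held the lowest GREM1 value of all 4 genes, as it did for Dnase1l3, whereas it held the highest for Ctrb1, Msln, Cyria and Laptm5.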
